A study of Mus musculus with 6 samples.

Results

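Acute phase proteins are plasma proteins that hepatocytes make in larger or smaller amounts during inflammation or injury. The account covers 10 genes of this response: the serum amyloids Saa1, Saa2 and Saa3, the orosomucoids Orm1, Orm2 and Orm3, the lipocalin Lcn2, haptoglobin (Hp), and the protease inhibitors Serpina3n and A2m. The members were taken by name, and each was read from the probe set that the platform annotation gives to that gene alone; where a gene had several, the one with the highest mean over the 6 arrays was used. Of the 10 genes 9 were measured in this way, out of 17097 genes in all, and Orm1 had no such probe set.

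Liver was sampled 12 h after 70% partial hepatectomy, the surgical removal of most of the liver, in 3 wildtype mice and in 3 mice lacking Klf6 specifically in hepatocytes (DeltaKlf6). All 6 mice were C57Bl/6 by strain label and all had undergone the operation; no unoperated liver was analysed here, so the levels below cannot be set against a resting liver. The sources used here give neither the animals' ages nor the promoter that drives the deletion. The study asked what hepatocyte Klf6, a zinc-finger transcription factor, contributes to liver regeneration.

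In the liver, the response is set off mainly by IL-6, IL-1 and TNF, which reach hepatocytes from Kupffer cells and other immune cells. IL-6 acts through its receptor and the shared subunit gp130 on JAK kinases and STAT3, and IL-1 and TNF act through NF-kB, while C/EBP factors bind many acute phase promoters. The same signals belong to the priming step in which hepatocytes leave rest after partial hepatectomy.

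Values are log2 expression, so a difference of 1 is a doubling, and every difference is DeltaKlf6 minus wildtype. The wildtype arrays correlated with each other at 0.982 to 0.983 across genes and the DeltaKlf6 arrays at 0.946 to 0.964. The first of 3 Klf6 probe sets read 3.61, 4.03 and 3.41 in wildtype 1, 2 and 3 and 5.81, 2.82 and 2.83 in DeltaKlf6 1, 2 and 3. The other two read 4.02, 3.73 and 4.44 against 5.88, 4.12 and 3.74, and 5.09, 4.43 and 5.20 against 7.03, 4.61 and 3.15. The library labelled DeltaKlf6 1 thus lay above every wildtype array on each Klf6 probe set, against its label, and the group differences of 0.13, 0.52 and 0.02 did not pass. Whether the probes target the deleted exons is not known here, and directions below are between libraries as labelled. The spiked hybridization controls averaged 11.22 in the library labelled DeltaKlf6 3, 9.92 and 9.86 in DeltaKlf6 1 and 2, and 10.16 to 10.34 in wildtype. The gap between the 3' and 5' Gapdh control probe sets was 4.83 in DeltaKlf6 3, 3.47 and 3.45 in DeltaKlf6 1 and 2, and 4.06 to 4.43 in wildtype. Albumin (Alb), transferrin (Trf) and several other abundant plasma protein genes described below ran the opposite way, high in DeltaKlf6 1 and 2 and low in DeltaKlf6 3. The part of array quality in the results was not tested.

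None of the 9 measured genes passed the test, and their differences ranged from -1.77 (A2m) to 1.80 (Orm3). By limma with Benjamini-Hochberg adjustment over all genes, 0 of 9 passed at an adjusted p under 0.05, as did 0 of 17097 genes (0%). At an unadjusted p under 0.05 by limma there were 2 members, Orm3 on the higher side and A2m on the lower side, which is 22.2% of the 9 against 3.69% of all genes. The groups did not overlap for 1 of 9 members, Orm3, against 9.32% of all genes, of which 3.41% were higher and 5.91% lower in DeltaKlf6. Of the 9 differences 3 were above 0 and 6 below, with a median of -0.04 against -0.01 over all genes. The members were chosen with results of these arrays known, so these counts describe them and do not test them.

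**Figure D1:**
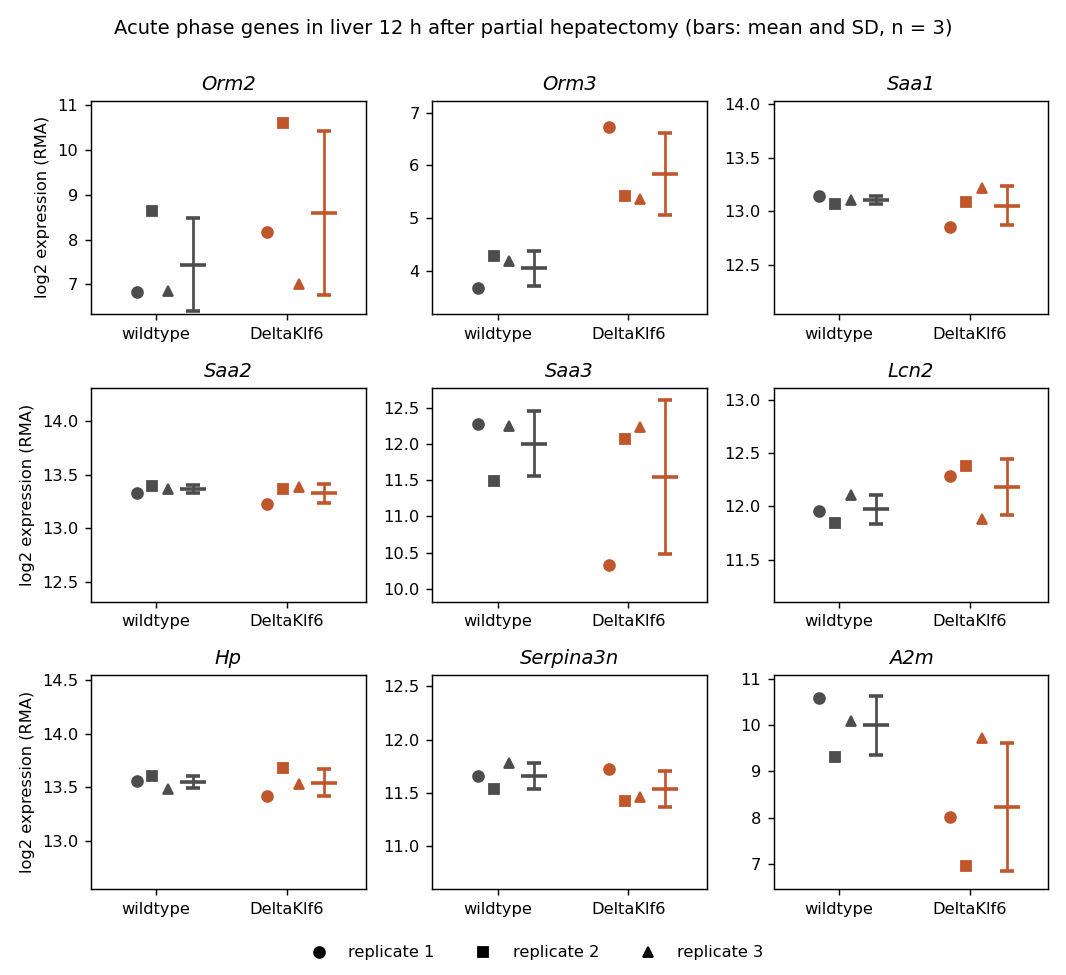
Log2 expression (RMA, vertical axis) of the 9 measured acute phase genes in the 3 wildtype arrays (grey) and the 3 arrays labelled DeltaKlf6 (orange); symbols mark replicates 1 to 3, bars the mean and SD of each group, and the vertical range differs between panels but spans at least 2 log2 units. Orm3 is the gene whose groups do not overlap, while Saa1, Saa2 and Hp stay within a narrow band in all 6 arrays.

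The orosomucoids, acidic glycoproteins that bind small lipophilic molecules in plasma, held the largest upward differences. Orm1, Orm3 and Orm2 lie next to each other in this order on chromosome 4, with no other protein-coding gene between them. The 250 bases upstream of the Orm2 and Orm3 starts were 85.9% identical (219 of 255 aligned positions). As these genes held the largest upward differences, the distal stretch of both upstream regions is shown from RefSeq (GRCm38.p6), from base -250 to base -90 before the start. The capitals mark the match to the C/EBP core TTGCNNAA.
Orm2, chr4:63362199-63362359, plus strand: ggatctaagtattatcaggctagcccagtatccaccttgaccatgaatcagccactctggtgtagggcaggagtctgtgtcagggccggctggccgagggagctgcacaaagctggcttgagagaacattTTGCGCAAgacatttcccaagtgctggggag
Orm3, chr4:63355908-63356068, plus strand: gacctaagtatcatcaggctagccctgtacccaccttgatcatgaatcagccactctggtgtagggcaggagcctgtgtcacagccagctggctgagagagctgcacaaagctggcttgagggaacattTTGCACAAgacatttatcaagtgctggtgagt

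Orm3 read 3.67, 4.28 and 4.18 in wildtype 1, 2 and 3 and 6.73, 5.42 and 5.37 in DeltaKlf6 1, 2 and 3. Every DeltaKlf6 array thus lay above every wildtype array, and the highest value came from the library with high Klf6 probe sets. The means were 4.04 ± 0.32 and 5.84 ± 0.77 (SD, n = 3 each), a difference of 1.80 (SE 0.39, 95% confidence interval 0.89 to 2.70) or 3.48-fold on the RMA scale. Limma gave an unadjusted p of 0.00184 and an adjusted p of 0.992, so the difference did not pass over all genes. It was 1.35 without DeltaKlf6 1, 2.01 without DeltaKlf6 2 and 2.03 without DeltaKlf6 3, with a limma adjusted p of at least 0.412 over all alternatives. The wildtype values lay between percentiles 41.7 and 48.8 of the genes on their arrays and the DeltaKlf6 values between 58.6 and 73.7. Detection was not assessed, so the wildtype level of Orm3 may be partly background signal and the fold may be compressed.

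Orm2 was far more variable and overlapped between the groups. It read 6.83, 8.64 and 6.85 in wildtype and 8.16, 10.60 and 7.02 in DeltaKlf6. Only the library labelled DeltaKlf6 2 lay above the wildtype range, and replicate 2 was the highest array of each group. The difference was 1.15 (SE 0.88, 95% confidence interval -0.89 to 3.19; limma adjusted p = 0.992). Without DeltaKlf6 2 it was 0.15, and without DeltaKlf6 3 it was 1.94. The spread within wildtype (range 1.81) exceeded the difference between the groups.

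Lcn2, a lipocalin that withholds iron from bacteria by binding their siderophores, is made by stimulated hepatocytes and stored by neutrophils. It read 11.96, 11.84 and 12.11 in wildtype and 12.28, 12.38 and 11.88 in DeltaKlf6. DeltaKlf6 1 and 2 lay above the wildtype range and DeltaKlf6 3 within it. The difference was 0.21 (SE 0.22, 95% confidence interval -0.31 to 0.72; limma adjusted p = 0.992). In whole liver, more cells of a type and more RNA per cell cannot be told apart. Of 13 neutrophil markers 11 were measured, with 5 higher, 6 lower and 0 past the test. Their mean level was 3.99 to 4.28 in wildtype and 4.10, 3.88 and 4.32 in DeltaKlf6 1, 2 and 3. The part of neutrophils in the Lcn2 values was not tested. The granule genes Camp (difference -0.36), Mpo (-0.30) and Mmp9 (0.30) were near the medians of the arrays (3.30 to 3.45), and the alarmin S100a8 differed by -0.39; none passed.

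**Figure D2:**
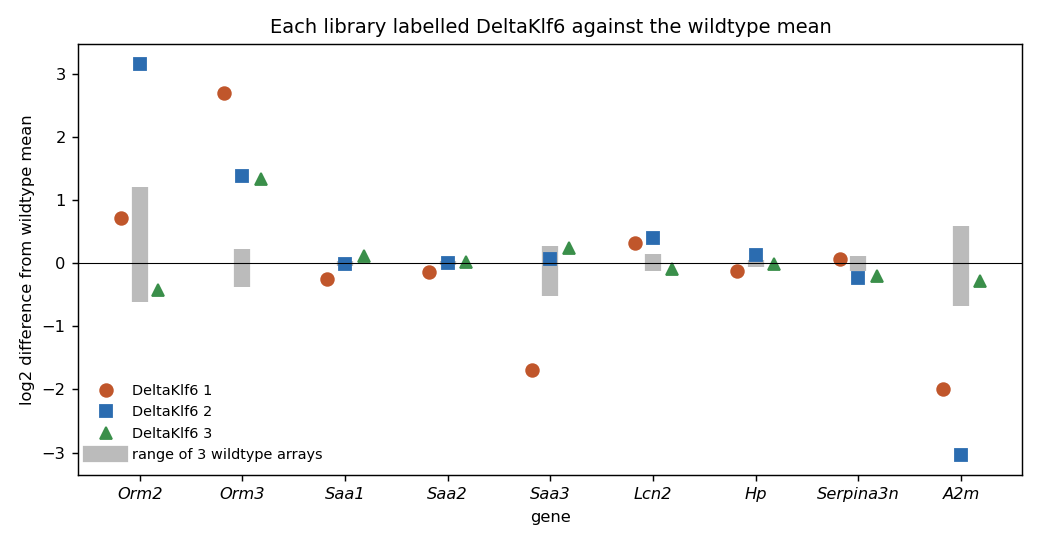
Difference of each library labelled DeltaKlf6 (circle, square and triangle for replicates 1, 2 and 3) from the wildtype mean, in log2 units, for the 9 measured genes; grey bars give the range of the 3 wildtype arrays around their mean. Orm3 lies above the grey bar in all 3 libraries, A2m lies below it in 2, and Saa3 lies below it in DeltaKlf6 1.

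The serum amyloids A are small apolipoproteins that displace others from high-density lipoprotein in inflammation; Saa1 and Saa2 are the main hepatic forms, and Saa3 is also made in macrophages and fat. Saa3, Saa4, Saa1 and Saa2 are consecutive protein-coding genes on chromosome 7. The upstream 250 bases of Saa1 and Saa2 were 94.8% identical, while Saa3 shared 52.7% with Saa1 and 51.8% with Saa2 by the same alignment. The Saa2 region is shown as the example of this near-duplicated pair, with the C/EBP core in capitals (RefSeq, GRCm38.p6, base -250 to base -1).
Saa2, chr7:46751583-46751832, plus strand: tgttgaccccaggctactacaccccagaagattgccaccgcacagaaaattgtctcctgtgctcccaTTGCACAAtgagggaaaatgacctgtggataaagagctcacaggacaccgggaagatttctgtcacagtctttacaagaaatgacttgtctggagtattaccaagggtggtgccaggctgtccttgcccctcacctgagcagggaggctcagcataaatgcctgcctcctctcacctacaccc

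Saa1 and Saa2 differed little between arrays of either genotype. Saa1 read 13.14, 13.06 and 13.11 in wildtype and 12.85, 13.09 and 13.22 in DeltaKlf6, a difference of -0.05 (SE 0.20, 95% confidence interval -0.52 to 0.41). Saa2 read 13.33, 13.40 and 13.37 in wildtype and 13.23, 13.37 and 13.39 in DeltaKlf6, a difference of -0.04 (SE 0.19, 95% confidence interval -0.48 to 0.40). DeltaKlf6 1 was the lowest array for both genes and lay below the wildtype range in each. A further probe set of Saa2 gave 0.03, the opposite sign and of no greater size. The Saa2 probe sets are of types that can share sequence with other transcripts, so signal from Saa1 and Saa2 may be mixed.

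Saa3 varied more between arrays, also within wildtype (range 0.80, against 0.078 for Saa1 and 0.070 for Saa2). It read 12.28, 11.48 and 12.26 in wildtype and 10.32, 12.07 and 12.24 in DeltaKlf6. The difference of DeltaKlf6 1 from the wildtype mean was -1.69, while DeltaKlf6 2 and 3 were inside the wildtype range. The difference of -0.46 (SE 0.51, 95% confidence interval -1.64 to 0.71; limma adjusted p = 0.992) became 0.15 without DeltaKlf6 1. Among the markers of cells known to make Saa3, the 12 Kupffer cell and macrophage markers had a mean of 7.18 to 7.60 in wildtype and 7.42 in DeltaKlf6 1, within that range. Behind this mean, directions in DeltaKlf6 1 were mixed. C1qa, C1qb and Marco lay above their wildtype ranges, Csf1r and Timd4 below, and the others within. Of the 4 measured adipocyte markers, of which Adipoq and Lep lay below the medians of the arrays in all 6 arrays, the mean was 4.56 in DeltaKlf6 1 against 4.50 to 5.09 in wildtype. The part of these cells in the Saa3 values was not tested. Saa4, the constitutively made relative, named here after its values were seen, read 9.33 in DeltaKlf6 1, 10.93 in DeltaKlf6 2 and 10.47 in DeltaKlf6 3, against a wildtype mean of 10.33 ± 0.36 (SD, n = 3). In DeltaKlf6 1, then, Saa1, Saa2, Saa3 and Saa4 each lay below all 3 wildtype arrays, with differences from the wildtype mean between -0.14 for Saa2 and -1.69 for Saa3. Of all genes, 59.9% lay outside the wildtype range in that library, on either side, so this is a description.

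Haptoglobin, which captures free haemoglobin, was at nearly the same level in every array. Hp read 13.56, 13.60 and 13.48 in wildtype and 13.42, 13.67 and 13.53 in DeltaKlf6, a difference of -0.01 (SE 0.20, 95% confidence interval -0.46 to 0.45). The whole range over 6 arrays was thus narrow, with DeltaKlf6 1 the lowest and DeltaKlf6 2 the highest. Hp stood at percentile 99.977 of the genes in DeltaKlf6 1 and at 99.994 on every other array. The highest value on any array was between 13.83 and 13.95. Between 26 and 28 of 45141 probe sets exceeded 13, so Hp, Saa1 and Saa2 were read close to the upper end of the scale, where differences may be compressed. The effect of this limit was not tested.

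Both protease inhibitors had differences below 0. Serpina3n, the mouse relative of human alpha-1-antichymotrypsin, read 11.66, 11.54 and 11.78 in wildtype and 11.73, 11.43 and 11.46 in DeltaKlf6. Its difference was -0.12 (SE 0.21, 95% confidence interval -0.59 to 0.35), with DeltaKlf6 2 and 3 just under the wildtype range. Of its Serpina3 relatives, Serpina3a and Serpina3i were measured at means between 2.76 and 2.94, below the medians of the arrays, with differences of -0.08 and 0.16.

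A2m, a plasma protein that traps proteases of many classes and is a strong acute phase protein in rat, held the largest downward difference. It read 10.59, 9.31 and 10.08 in wildtype and 8.01, 6.95 and 9.72 in DeltaKlf6. DeltaKlf6 1 and 2 lay below all wildtype arrays, with differences of -1.99 and -3.04 from the wildtype mean, while DeltaKlf6 3, at -0.27, lay within the wildtype range. The means were 9.99 ± 0.64 and 8.23 ± 1.40 (SD, n = 3 each), a difference of -1.77 (SE 0.66, 95% confidence interval -3.29 to -0.25) or 3.40-fold lower on the RMA scale. Limma gave an unadjusted p of 0.0279 and an adjusted p of 0.992. The difference was -2.51 without DeltaKlf6 3, the 1 DeltaKlf6 array within the wildtype range, and -1.13 without DeltaKlf6 2. The limma adjusted p was at least 0.331 over all alternatives. A2m is an older symbol of Pzp in RefSeq, so both were matched by gene number.

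The measured relatives of A2m in the same family had differences above 0. Pzp, a pregnancy zone protein of the same family, differed by 0.44 (SE 0.41), the murinoglobulin Mug1 by 0.38 (SE 0.40) and A2ml1 by 0.46 (SE 0.24). None passed the test. Without DeltaKlf6 2 the differences of Pzp and Mug1 were 0.057 and 0.054, and without DeltaKlf6 3 they were 0.90 and 0.84. Pzp read 11.64 and 12.27 in DeltaKlf6 1 and 2, above its wildtype range of 10.83 to 11.28, and 10.57 in DeltaKlf6 3, below it. Mug1 followed the same order, with 10.79, 11.15 and 9.57 against 9.87 to 10.29 in wildtype. In DeltaKlf6 1 and 2, therefore, A2m was low while Pzp and Mug1 were high, and whether the differences of these genes differ from each other was not tested. A2ml1 was higher in all 3 DeltaKlf6 arrays (9.51, 9.95 and 9.69 against 8.90 to 9.46). Serpina1d, one of the alpha-1-antitrypsin genes, had the largest difference of the 9 measured relatives, at 0.80 (SE 0.48); its many near-identical copies make that probe set's source uncertain.

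**Figure D3:**
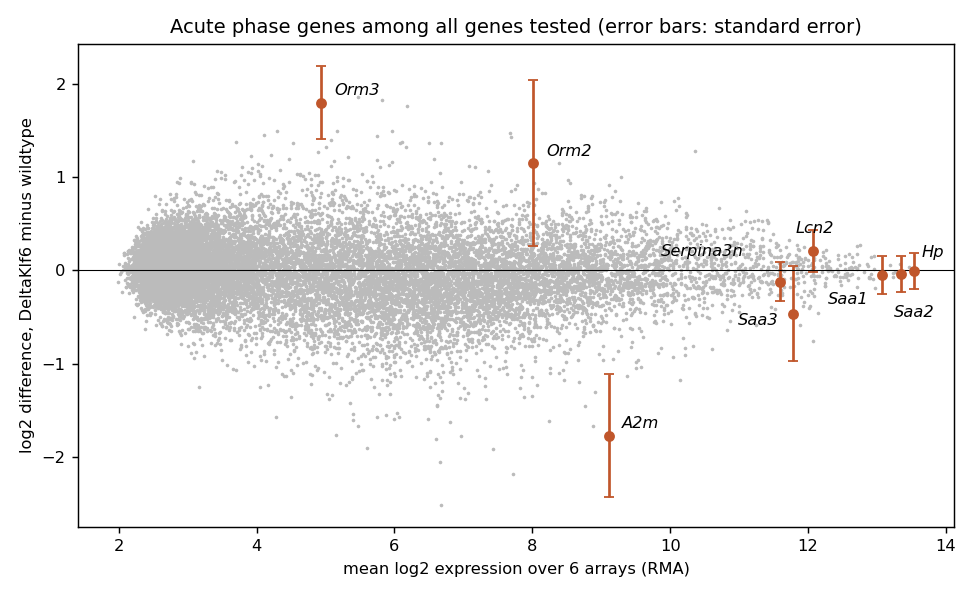
Difference between DeltaKlf6 and wildtype (vertical axis, log2) against the mean level over the 6 arrays (horizontal axis, log2, RMA) for 17097 genes (grey) and the 9 acute phase genes (orange, with the standard error from limma). Orm3 at 1.80 and A2m at -1.77 stand at the edges of the cloud, and the 3 genes at the right end, Saa1, Saa2 and Hp, are close to 0.

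Library by library, the members left the wildtype range in different ways. In DeltaKlf6 1, 2 members lay above the wildtype arrays (Orm3, Lcn2) and 5 below (Saa1, Saa2, Saa3, Hp, A2m), together 7 of 9 against 59.9% of all genes. In DeltaKlf6 2, 4 lay above (Orm2, Orm3, Lcn2, Hp) and 2 below (Serpina3n, A2m), 6 of 9 against 55.6% of all genes. In DeltaKlf6 3, 2 lay above (Orm3, Saa1) and 1 below (Serpina3n), 3 of 9 against 62.3% of all genes. Orm3 was thus the 1 member on the same side in all 3 libraries.

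Across the 6 arrays the members did not move as a block. Of 36 pairs of members 16 had a positive and 20 a negative Pearson correlation. Saa1 with Saa3 had r = 0.94 and rho = 0.83 (exact permutation p = 0.00694 and 0.0583, adjusted over 36 pairs 0.25 and 0.42), and r = 0.85 without the 2 arrays farthest from the median of Saa1. Orm2 with A2m had r = -0.90 and rho = -0.94 (exact permutation p = 0.0153 and 0.0167, adjusted 0.275 and 0.42), and r = -0.98 without the 2 farthest arrays. None of the 36 pairs passed. With 6 arrays the exact permutation p cannot be small enough for 1 pair alone to pass over 36 pairs, so this outcome decides nothing. Within a genotype 3 arrays are too few for a correlation. Outside the members, the genes whose 6 values followed a member most closely were Idh3b and Scnm1 for Orm3 (r = 0.991 each, n = 6 arrays), Ankrd37 and Lias for A2m (0.994 and 0.988), Map4k1 and Avpr1a for Orm2 (0.996 and 0.995), Rfng and Ankrd24 for Saa3 (0.996 and 0.989) and Fkbp7 and Nck2 for Lcn2 (0.978 and 0.970). These are the highest correlations among all measured genes over 6 shared arrays and are given as descriptions.

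Of 20 other positive acute phase genes listed 17 were measured, 11 higher and 6 lower, with 0 past the test and a median of 0.03. The copper carrier ceruloplasmin (Cp) differed by 0.39 (SE 0.31), the interleukin-1 receptor antagonist Il1rn by 0.43 (SE 0.39), complement factor B (Cfb) by 0.45 (SE 0.52) and the fibrinogen gamma chain (Fgg) by 0.18 (SE 0.21). All 4 overlapped between the groups. With probe sets averaged per gene, Cp was 0.13 and Il1rn 0.21. Without DeltaKlf6 1 they were 0.16 and 0.026, and without DeltaKlf6 3 Cp was 0.68. Without DeltaKlf6 2 Il1rn was 0.84 and Cfb -0.015, and without DeltaKlf6 3 Cfb was 1.04. Cp read 12.13 and 11.81 in DeltaKlf6 1 and 2, above its wildtype range of 10.99 to 11.61, and 11.10 in DeltaKlf6 3.

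Negative acute phase proteins, whose genes are turned down in inflammation, had 6 of 8 measured members higher and 2 lower, with 0 past the test and a median of 0.13. Hrg, the histidine-rich glycoprotein, differed by 0.53 (SE 0.41), Serpina6, corticosteroid-binding globulin, by 0.54 (SE 0.80), Alb by 0.15 (SE 0.27) and Trf by 0.21 (SE 0.39). Trf read 12.83 and 12.85 in DeltaKlf6 1 and 2 and 11.41 in DeltaKlf6 3, against 12.14 to 12.15 in wildtype. Hepatocyte markers had a mean of 11.27 and 11.38 in DeltaKlf6 1 and 2, above the wildtype range of 10.87 to 10.99, and 10.76 in DeltaKlf6 3, below it; 9 of 11 were higher and 0 passed. The 4 with the smallest unadjusted p were Tat (0.64), an enzyme of tyrosine breakdown, Serpinc1, encoding antithrombin (0.53), Fah (0.37), the last enzyme of tyrosine breakdown, and prothrombin, F2 (0.23).

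**Figure D4:**
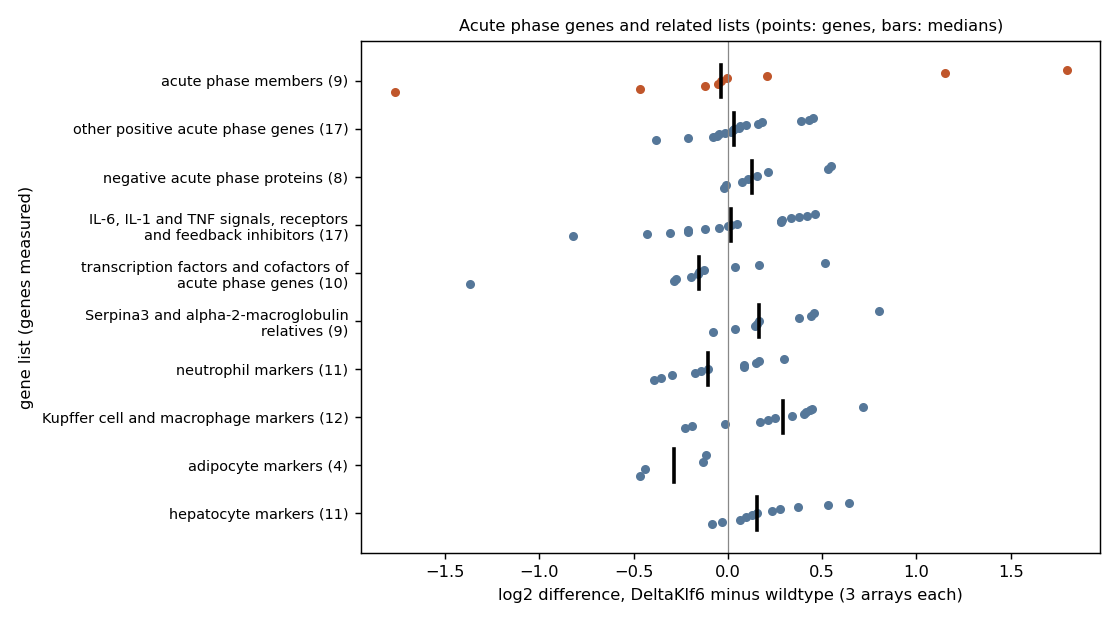
Difference between DeltaKlf6 and wildtype (horizontal axis, log2) of each measured gene (points) in the acute phase members and 9 related lists, with the median of each list as a black bar and the number of genes measured in parentheses. The members have the widest spread, from -1.77 to 1.80, around a median of -0.04.

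Upstream of these genes, the IL-6 receptor was the signal gene with the smallest unadjusted p. Il6ra, the ligand-binding subunit, read 7.79, 7.36 and 7.28 in wildtype and 6.97, 6.61 and 6.39 in DeltaKlf6, so the groups did not overlap. The difference was -0.82 (SE 0.25; limma unadjusted p = 0.0111, adjusted p = 0.992), and it was -0.44 when the probe sets of Il6ra were averaged. Il6 itself was at 2.47 to 3.03 in all 6 arrays, under the medians of the arrays, and differed by -0.05. Il6st, encoding gp130, differed by 0.05, Stat3 by 0.28 and its feedback inhibitor Socs3 by 0.42 (SE 0.44). Socs3 read 7.96 in DeltaKlf6 1 and 6.26 to 6.62 in the other 5 arrays, and without DeltaKlf6 1 its difference was -0.13. Il1b differed by -0.43, Tnfrsf1a, the main TNF receptor, by 0.38 and Il1a by 0.33. Of 17 measured signal genes 10 were higher and 7 lower, with 0 past the test and a median of 0.02.

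Among transcription factors of acute phase genes Foxa2, which opens liver-specific chromatin, had the largest difference. It read 7.49, 7.61 and 7.79 in wildtype and 5.71, 6.99 and 6.09 in DeltaKlf6, without overlap, a difference of -1.37 (SE 0.33; limma unadjusted p = 0.00352, adjusted p = 0.992). The lowest Foxa2 value came from DeltaKlf6 1 and the highest of the group from DeltaKlf6 2. Cebpa differed by -0.28, Cebpb by -0.20 and Nfkb2 by 0.52; none passed. Of 10 measured 3 were higher and 7 lower, with a median of -0.16. Kupffer cells, a source of the cytokines, were represented by 12 markers, of which 9 were higher and 3 lower with 0 past the test. The 4 with the smallest unadjusted p were C1qb (0.72), Marco (0.44), Cd68 (0.41) and C1qa (0.40). The 3 lower ones were Adgre1 (-0.23), Csf1r (-0.19) and Timd4 (-0.02). The Kupffer mean was 8.12 in DeltaKlf6 2, above the wildtype range, and 7.37 in DeltaKlf6 3. The 4 measured adipocyte markers were all lower by group mean, with Fabp4 at -0.47 and Retn at -0.44, Lep at -0.13 and Adipoq at -0.12, and 0 passed; Fabp4 was 0.20 without probe sets of shared types.

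Upstream sequences of 7 members were in RefSeq's promoter table (GRCm38.p6); Orm1, Hp and A2m were not matched. In the 250 bases before the start, on both strands, the C/EBP core TTGCNNAA occurred in 6 of 7 (Orm2, Orm3, Saa1, Saa2, Saa3, Lcn2), against 9.56% of 32851 promoters. It lay at -120 to -113 in Orm2 (TTGCGCAA) and at -121 to -114 in Orm3 (TTGCACAA), and at -183 to -176 in Saa2. Orm2 and Orm3 (85.9% identical) and Saa1 and Saa2 (94.8%) are near-duplicates in this window, so the 6 matches are not from 6 independent sequences. An NF-kB pattern (GGG, any 2 bases, then TTTCC) was found in Serpina3n (1.41% of promoters), the glucocorticoid receptor pattern ACANNNTGT in Lcn2, Orm3 and Serpina3n (5.84%), the KLF pattern CCNCNCCC in Lcn2 (45.9%) and the STAT pattern TTCNNNGAA in 0 of 7 (7.02%). Of these patterns, only the C/EBP core was found in the printed regions. In Orm3 the ACANNNTGT match lies at -38 to -30, and Orm2 has none in its 250 bases. That match is in the part not printed. The printed part ends where the annotated gene span of Orm2 or Orm3, or of both, begins, so the match may lie within it. Positions count from the start given with the promoter sequence, which lies inside that span. A match describes letters and not binding, and the absence of one concerns these letters in this window alone.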

How the data were processed

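Total RNA from mouse liver was hybridized to one-channel Affymetrix arrays, 3 per genotype, each from 1 animal per the series design. The submitters' processing notes name RMA, a method that corrects background, normalizes arrays by quantiles and summarizes probes, and the program Affymetrix Expression Console, version 1.2.1. The deposited values are taken as log2, a base inferred from their range (highest 13.95). The genome build is not given in the sources used here.

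Of 45141 probe sets, 104 are controls; 28898 had 1 gene symbol, 551 several and 15692 none. Matching by gene number to RefSeq changed 0 symbols. Differences were tested with limma 3.58.1 in R 4.3.3 (lmFit, eBayes), two-sided, with Benjamini-Hochberg adjustment over 17097 genes at 0.05; the fit was checked on simulated data. The number of arrays limits the precision. Named genes were the members, the 4 genes of smallest unadjusted p per related list, close relatives, and the 2 best-correlated genes per member (placeholder symbols and those of Saa1, Saa2, Hp and Serpina3n not printed). The members and lists were chosen with earlier results of these data known. Replicate numbers did not pair the arrays throughout (correlations of same-numbered deviations -0.0049, 0.26 and 0.084). The arrays numbered 2 were each other's best match, and those numbered 1 and 3 were not. Alternatives covered normalization, probe set choice, filtering, variance model, array weights, a replicate block and leaving out each array.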

Additional observations from a re-analysis of the deposited data

Results flagged for a closer look

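The spiked hybridization controls, 18 probe sets outside the gene comparison, averaged 11.22 in the library labelled DeltaKlf6 3, above all 3 wildtype arrays (10.16 to 10.34). In this library 3 of 9 acute phase genes lay outside the wildtype range, against 62.3% of all genes. In DeltaKlf6 1 and 2 the counts were 7 and 6 of 9, against 59.9% and 55.6% of all genes.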

How the results depend on the processing

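Under every alternative run, 0 genes, 0 of the members and 0 genes of the related lists passed adjustment. The number of genes at an unadjusted p under 0.05, 631 with all arrays, reached 1546 when DeltaKlf6 3 was left out and 1165 when DeltaKlf6 2 was; leaving out wildtype 1 gave 388 and wildtype 3 gave 379. The related lists held between 4 and 17 measured genes each. Over all of these lists the number was 2 with all arrays and 22 when DeltaKlf6 3 was left out, beside 631 and 1546 of 17097 genes. The lists were chosen with earlier results known, so these counts are descriptions. The members at that level were 2 with all arrays, 3 without DeltaKlf6 3, and 1 (Orm3) on leaving out DeltaKlf6 1, DeltaKlf6 2, wildtype 1 or wildtype 3, or with an unmoderated test. Orm3 stayed above 0 throughout (1.35 to 2.03), as did Orm2 (0.15 to 1.94) and Lcn2 (0.11 to 0.36); A2m (-2.51 to -1.13) and Serpina3n (-0.21 to -0.06) stayed below 0. A block by replicate number was borne out by the array deviations for replicate 2 at most. With that block, 703 genes and 3 members (Orm2, Orm3 and A2m) had a limma unadjusted p under 0.05, and 0 passed. The median of the members ranged from -0.068 to 0.054 when single arrays were left out, the upper value without DeltaKlf6 1. Signs of small differences changed. Leaving out single arrays gave ranges of -0.14 to 0.047 for Saa1, -0.068 to 0.012 for Saa2, -0.81 to 0.15 for Saa3, -0.073 to 0.054 for Hp and -0.43 to 0.38 for Saa4. Related genes ranged from -0.015 to 1.04 (Cfb), -0.029 to 0.69 (Trf), -0.13 to 1.52 (Serpina6), -0.13 to 0.72 (Socs3), -0.0074 to 0.53 (Stat3), -0.16 to 0.12 (Il6), -0.091 to 0.23 (Il6st), -0.35 to 0.080 (Cebpb), -0.62 to 0.27 (Cebpd), -1.24 to 1.10 (Cd14), -0.78 to 0.40 (Hamp), -0.61 to 0.85 (Il1r1), -0.25 to 0.038 (Serpina3a), -0.022 to 0.28 (Serpina3i) and -0.34 to 0.14 (Adipoq). Averaging probe sets per gene gave -0.018 for Il6st and 0.14 for Saa4, array weights gave 0.0078 for Hp and -0.0082 for Il6st, and leaving out shared-type probe sets gave 0.20 for Fabp4; that setting also drops Saa2, Saa3 and Lcn2, leaving 6 members. The cause was not tested. Scanner files were not analysed here, so detection, background and scan batches were not assessed. The median SD over genes in DeltaKlf6 was 1.47 times the median SD over genes in wildtype.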

Other observations

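Several genes of the acute phase network, named after their values were seen, lay outside the wildtype range in 1 or more libraries. Of all genes, 59.9%, 55.6% and 62.3% lay outside that range in DeltaKlf6 1, 2 and 3. In the library labelled DeltaKlf6 2 the iron hormone gene Hamp read 10.16 against 11.85 to 12.43 in wildtype, the endotoxin co-receptor gene Cd14 read 5.48 against 7.74 to 9.01, and Cebpd, an inducible C/EBP factor, read 7.62 against 8.92 to 9.18. Cebpb was also at its lowest there, at 10.51 against 11.23 to 11.30. In DeltaKlf6 1 and 3, by contrast, Hamp (12.53 and 12.52), Cebpd (9.40 and 9.20) and Cebpb (11.37 and 11.31) lay above their wildtype ranges. In DeltaKlf6 1 Cd14 read 10.16 and the interleukin-1 receptor gene Il1r1 read 10.17, above their wildtype ranges of 7.74 to 9.01 and 7.70 to 8.30. Cd14 thus lay above that range in DeltaKlf6 1 and below it in DeltaKlf6 2, as did Il1r1, which read 7.24 in DeltaKlf6 2. Directions in DeltaKlf6 2 were mixed, as Cfb (8.99), Cp (11.81) and Lbp (9.84) lay above their wildtype ranges there. The 17 measured other positive acute phase genes, Hamp and Cd14 included, had a median difference of 0.23 from the wildtype mean in that library. None of these genes passed limma's test between the groups (adjusted p at least 0.992).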
